A study of Mus musculus with 3 samples.

Results

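The genes described here are the receptors and bridging proteins of efferocytosis, the engulfment of dying cells by phagocytes. They were the 9 genes Mertk, Axl, Tyro3, Gas6, Pros1, Mfge8, Cd300a, Msr1 and Marco, taken by symbol from a list, and all 9 were found among the 32285 features of the count tables. Levels were measured by droplet single-cell RNA sequencing of dissociated muscle 4 days after barium chloride (BaCl2) injury of the tibialis anterior of C57/BL6J mice. The 3 libraries were young PBS (young mice given saline), old PBS (old mice given saline) and old rMETRNL (old mice given recombinant METRNL, a secreted protein). All mice carried the injury and no uninjured muscle was compared. Each library pooled several mice, so a group was 1 sample, no p-value could be given, and every interval below is an exact 95% interval that covers counting error only, not the spread between mice. Sets of 3 values run in the order young PBS, then old PBS, then old rMETRNL, unless a sentence says otherwise.

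A dying cell exposes phosphatidylserine on its surface, and phagocytes recognise that lipid either directly or through a soluble bridge. MERTK, AXL and TYRO3, together the TAM receptors, are tyrosine kinases whose ligands GAS6 and protein S (PROS1) bind both the lipid and the receptor. MFGE8 links the same lipid to integrins, CD300A is an inhibitory receptor that binds phosphatidylserine and phosphatidylethanolamine, and MSR1 and MARCO are class A scavenger receptors of macrophages. In injured muscle, macrophages clear necrotic fibres and dead neutrophils before repair proceeds.

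Upstream sequences are shown for 5 members whose levels set cell classes or libraries apart below, so that genes held mostly by macrophages can be read beside genes shared with stroma. Of the 9 genes, 8 had an entry in the RefSeq promoter table for GRCm38.p6, and Msr1 was not among them. Each line gives the 120 bases before the RefSeq transcription start, 5′ to 3′ on the strand of the gene, and capitals mark the GC box, the letters GGGCGG on either strand. The stretches are chr2:128698795-128698914 on the plus strand for Mertk, chr7:25788734-25788853 on the minus strand for Axl, chr16:62854187-62854306 on the plus strand for Pros1, chr7:79149061-79149180 on the minus strand for Mfge8 and chr11:114889921-114890040 on the plus strand for Cd300a.
Mertk: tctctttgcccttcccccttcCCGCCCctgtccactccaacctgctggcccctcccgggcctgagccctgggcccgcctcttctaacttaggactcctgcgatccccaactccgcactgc
Axl: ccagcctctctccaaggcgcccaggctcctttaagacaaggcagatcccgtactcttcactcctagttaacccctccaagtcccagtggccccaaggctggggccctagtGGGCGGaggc
Pros1: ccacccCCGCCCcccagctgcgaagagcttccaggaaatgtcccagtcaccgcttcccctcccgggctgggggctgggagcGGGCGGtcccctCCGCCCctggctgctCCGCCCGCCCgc
Mfge8: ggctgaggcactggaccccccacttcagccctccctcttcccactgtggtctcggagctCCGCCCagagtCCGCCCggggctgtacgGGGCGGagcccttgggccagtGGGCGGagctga
Cd300a: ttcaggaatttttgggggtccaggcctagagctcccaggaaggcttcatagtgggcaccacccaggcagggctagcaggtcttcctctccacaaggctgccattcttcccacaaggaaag
The stretch of Pros1 held 5 GC boxes, the last pair of which overlap, that of Mfge8 held 4, those of Mertk and Axl held 1 each, and that of Cd300a held none. Over the 250 bases before the start, a GC box was found in 6 of 8 members (Mertk, Axl, Tyro3, Gas6, Pros1 and Mfge8, not Cd300a or Marco), and in 32.7% of all 32851 promoters in the table. The letters TGANTCA (AP-1), GAGGAAGT (PU.1) and GAAA followed after any pair of bases by GAAA (interferon-stimulated response element) were found on neither strand in any of the 8, against 6.75%, 2.44% and 2.98% of all promoters. TTCNNNGAA (STAT) was found in 1 member, Pros1, inside the printed stretch and outside its capitals, and in 7.02% of all promoters. A match describes letters only, and the lack of one says only that those letters are not in this window.

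The libraries held 12168, 12568 and 14012 barcodes, of which 10322, 10020 and 11477 were kept, with a median of 15092.5, 13765.5 and 14515 UMIs (unique molecules) per cell. Between 58 and 80 barcodes were shared by any pair of libraries. Cells were clustered without the members and without 76 other genes of the pathway, and clusters were named from marker genes. Macrophage/monocyte-like cells numbered 6213, 6016 and 6782, at a median of 14074, 14709.5 and 14325.5 UMIs, and FAP-like cells (fibro-adipogenic progenitors, the stromal cells of muscle) numbered 1621, 1321 and 1674. Their Csf1r level, which marks macrophages, was 684, 708 and 600.2 CPM (UMIs per 1000000 UMIs of the class) in the former and 5.09, 6.08 and 5.66 CPM in the latter. Myocyte/fibre-like cells had a median of 26285 UMIs in young PBS but 2164.5 and 2982 in the old libraries, and are left out of the comparisons below. Hspa1a, a heat shock gene, stood at 1400.5, 661 and 1378 CPM in macrophage/monocyte-like cells, and its part in the results below was tested only by leaving out the sub-cluster it led.

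The 9 genes fell into those found almost wholly in macrophages and those shared with stroma. Macrophage/monocyte-like cells were 59.1% to 60.2% of kept cells. They held 91.3%, 92.8% and 91.3% of all Mertk UMIs. The corresponding shares were 93.1% to 94.7% for Cd300a, 97.2% to 97.6% for Msr1 and 98.4% to 100% for Marco. Tyro3 was the opposite case, with 77.5% to 80.9% of its UMIs in FAP-like cells. Axl, Gas6, Pros1 and Mfge8 were divided between macrophages and FAPs, and for each of them the division differed between libraries. Macrophage/monocyte-like cells held 34.5%, 69.4% and 59.2% of Mfge8 UMIs. For Axl the macrophage share was 52.9%, 53.9% and 39.0%, and in old rMETRNL FAP-like cells held the larger share, 43.6%. For Gas6 the macrophage share was 45.8%, 56.9% and 59.6%. For Pros1 it was 26.1%, 36.5% and 26.8%, with 58.2%, 49.97% and 55.0% in FAP-like cells. These shares follow both the level per cell and the number of cells captured.

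**Figure D1:**
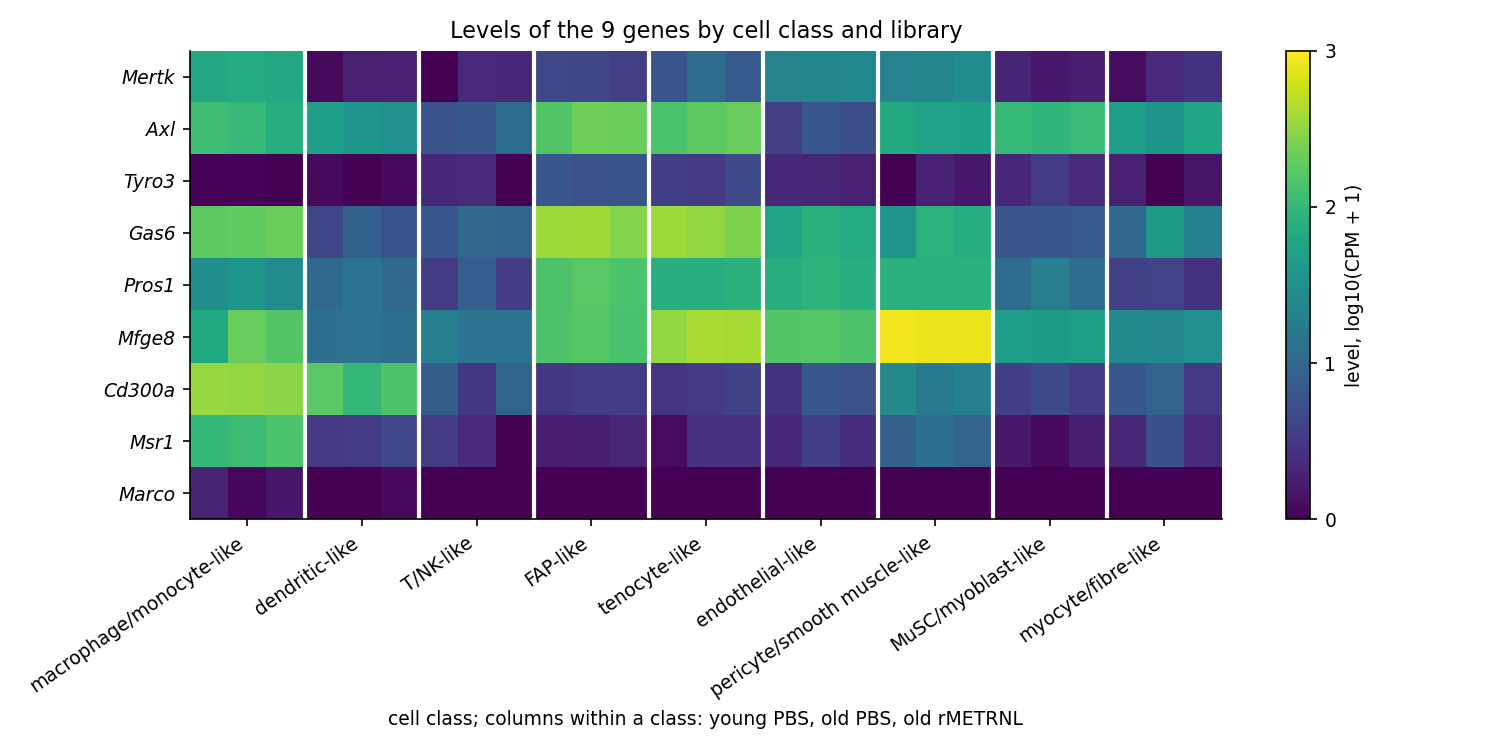
Level of each of the 9 genes as log10(CPM + 1), by cell class (blocks of columns) and library (columns within a block run from young PBS on the left to old rMETRNL on the right). Among the classes drawn, which leave out the small glial-like class, Mertk, Cd300a and Msr1 are highest in the macrophage/monocyte-like block, Mfge8 in the pericyte/smooth muscle-like block (808 to 853 CPM), and Marco is near 0 everywhere.

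Comparisons were made within each class for 3 contrasts: old PBS over young PBS, old rMETRNL over old PBS, and old rMETRNL over young PBS, any pair of which shares a library. A gene was counted as past the fold when its CPM ratio was at least 25% above 1, or below 1 by the same factor, its interval left out 1 and both libraries together held at least 50 UMIs. In macrophage/monocyte-like cells of old PBS, Mfge8 and Pros1 were higher and Marco was lower than in young PBS. These were 3 of the 8 members with enough UMIs, where 25.3% of all genes tested were past the fold. With rMETRNL, 4 of 8 were past the fold against old PBS (Marco higher, Axl, Pros1 and Mfge8 lower) against 20.7% of all genes. Between old rMETRNL and young PBS, 4 of 8 were past it (Mfge8 and Msr1 higher, Axl and Marco lower) against 12% of all genes. The median log2 ratio of the members was 0.11, -0.14 and -0.06 in the 3 comparisons, where that of all genes was -0.00, 0.05 and 0.04.

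Fewer members were past the fold in FAP-like cells than in macrophages, whose counts include Marco, found in 28, 6 and 16 cells. The counts in FAP-like cells moved with the settings, as given below. Axl alone was higher in old PBS than in young PBS (1 of 8 members, where 29% of all genes were past the fold). Gas6 alone was lower with rMETRNL than in old PBS (1 of 8, where 19.1% of all genes were), and both stood past the fold between old rMETRNL and young PBS (2 of 8, where 14.5% of all genes were). With 8 members measured, 1 or 2 past the fold is close to that background, and with sub-cluster shares set equal only the first of these 4 ratios stayed past the fold. The median log2 ratio of the members was 0.18, -0.16 and -0.04 in the 3 comparisons, and that of all genes was -0.05, 0.02 and -0.01.

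**Figure D2:**
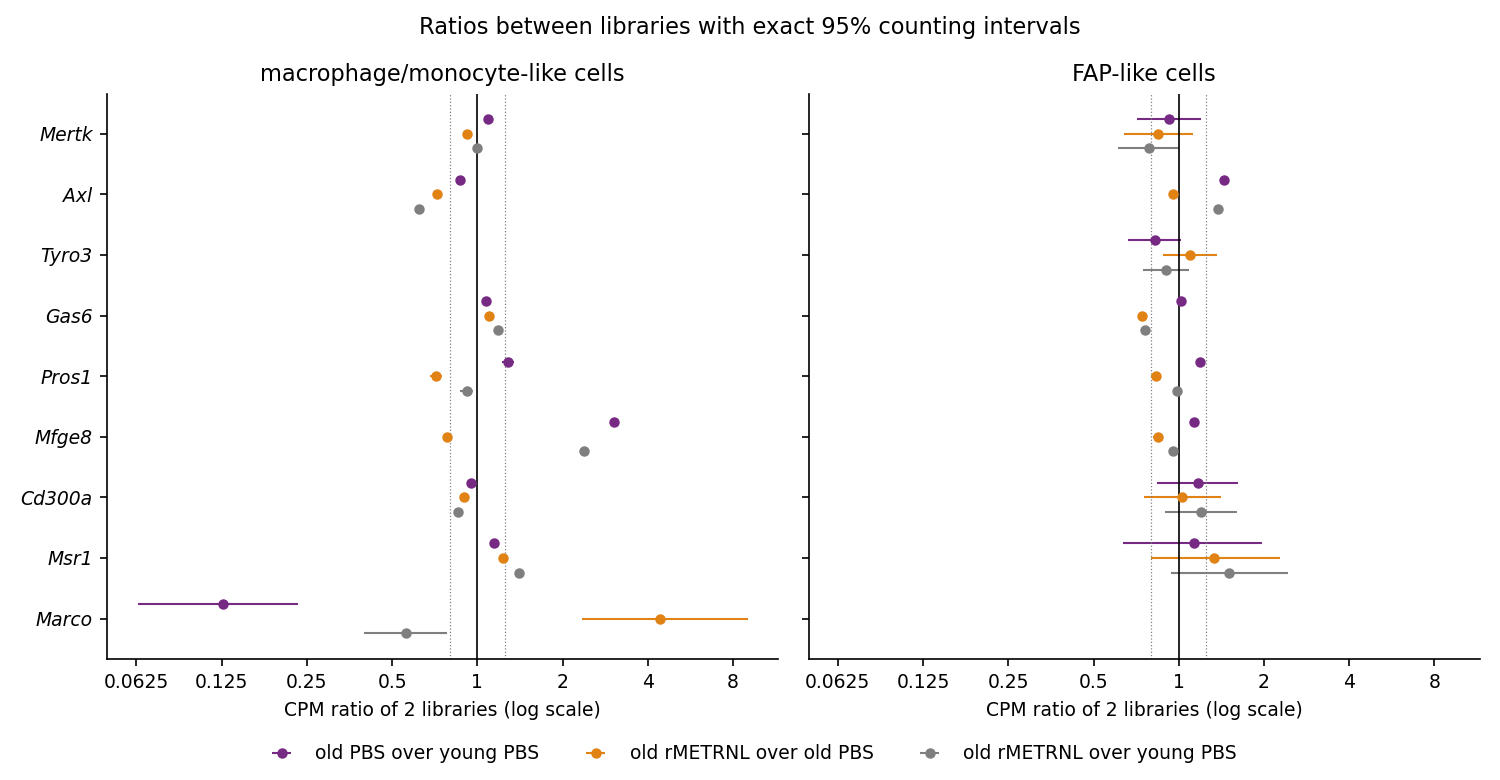
CPM ratio of each gene between libraries (log axis) in macrophage/monocyte-like cells (left) and FAP-like cells (right), with exact 95% counting intervals; dotted lines mark the fold used and its inverse, and genes under 50 UMIs are not drawn. Mfge8 lies at 3.03 and 2.37 in the macrophage panel for the comparisons with young PBS, and Axl lies left of 1 in the macrophage panel but right of it in the FAP panel for the same comparisons.

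Mertk (ENSMUSG00000014361, chr2:128698956-128802894, plus strand, GRCm38), the TAM receptor most used by macrophages for engulfment, did not differ past the fold in either large class. In macrophage/monocyte-like cells it stood at 64.1 CPM (62.5 to 65.7), 69.8 (68.2 to 71.5) and 64.1 (62.6 to 65.6). Old PBS was the highest by a small margin and the other libraries overlapped. The ratios were 1.09 (1.05 to 1.13) for old PBS over young PBS and 0.918 (0.888 to 0.949) for old rMETRNL over old PBS. With every cell thinned to 2000 UMIs, 12.5%, 12% and 11.2% of these cells held a Mertk UMI (50.7%, 52.5% and 51.0% before thinning), against 0%, 0.568% and 0% of T/NK-like cells, whose median was 5815, 5983 and 5050.5 UMIs. A count of 0 in the 201 and 113 thinned T/NK-like cells allows a share of up to 1.49% and 2.65%.

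Other cells with Mertk were endothelial-like (20.8, 22.7 and 24.1 CPM) and pericyte/smooth muscle-like (20.2, 22.6 and 27.5 CPM), whose intervals overlapped in each library. Those levels were 19.0 to 35.5 times and 6.70 to 7.23 times what carried-over macrophage RNA would give, judged from 6 macrophage genes in the same cells. A small glial-like class of 28, 69 and 53 cells had Mertk at 70.4 (41.7 to 111), 105 (73.0 to 147) and 98.0 (66.1 to 140) CPM. Within macrophages, Ly6c2-high monocyte-like cells were the lowest of the 6 named subsets at 24.7, 23.3 and 18.5 CPM, and the Il1a/Slc7a11 subset the highest at 84.2, 85.5 and 80.0 CPM.

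Axl (ENSMUSG00000002602, chr7:25757273-25788705, minus strand), a TAM receptor that binds GAS6, was the member past the fold in opposite directions in macrophages and FAPs, which it was between old rMETRNL and young PBS. Its macrophage/monocyte-like level was 117 CPM (115 to 119), 102 (99.7 to 104) and 73.0 (71.4 to 74.6). All 3 libraries lay apart, with old rMETRNL the lowest. Ratios were 0.867 (0.844 to 0.891) for old PBS over young PBS, 0.718 (0.697 to 0.739) for old rMETRNL over old PBS and 0.623 (0.605 to 0.641) for old rMETRNL over young PBS. The ratio to old PBS was 0.802, inside the fold, when each cell was weighted equally, and 0.661 without the heat-shock-led sub-cluster. Thinned shares of cells with an Axl UMI were 21.6%, 18.5% and 14.9% (60.6%, 55.6% and 46.8% before thinning), against 0.75%, 1.0% and 0.729% of endothelial-like cells, at a median of 11622.5, 5020.5 and 9040.0 UMIs.

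The lower Axl of old rMETRNL was seen in macrophage groups with much and with little Axl. Ly6c2-high monocyte-like cells stood at 171, 153 and 126 CPM and the Il1a/Slc7a11 subset at 165, 157 and 121 CPM. At the low end, the Cd163/Lyve1 subset, which carries genes of resident macrophages, stood at 49.99, 56.9 and 27.3 CPM and the Spp1/Gpnmb subset at 41.6, 51.3 and 32.5 CPM. Against old PBS the ratio was past the fold in 5 of the 6 subsets, from 0.480 (0.427 to 0.538) in the Cd163/Lyve1 subset to 0.771 (0.728 to 0.815) in the Il1a/Slc7a11 subset, and was 0.826 (0.744 to 0.917) in Ly6c2-high monocyte-like cells. In the 13 sub-clusters with at least 50 cells, Axl was higher in old rMETRNL than in old PBS in 0 and higher than in young PBS in 0. With sub-cluster shares set equal, the ratio was 0.769 to old PBS and 0.737 to young PBS, while that of old PBS to young PBS was 0.959. The interferon subset, which held 17.9%, 2.96% and 9.54% of macrophages, had Axl at 166, 160.5 and 116 CPM.

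**Figure D3:**
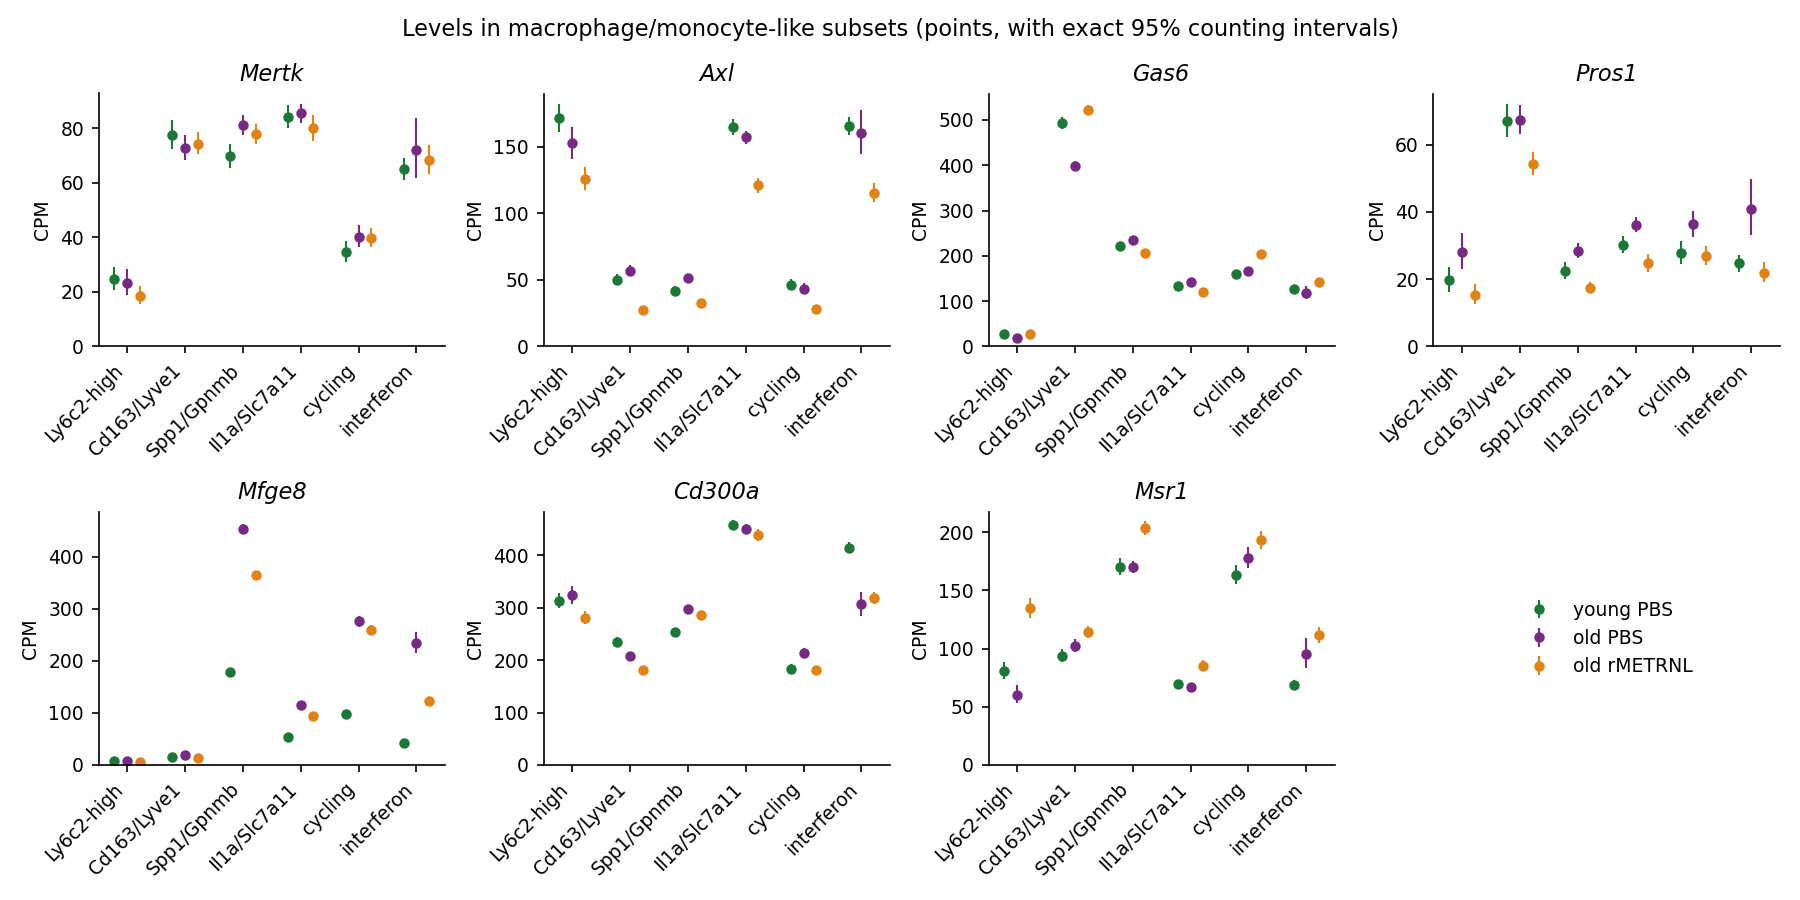
CPM of 7 genes in 6 macrophage/monocyte-like subsets, 1 point per library with its exact 95% counting interval; Tyro3 and Marco are not drawn because they are near 0. Axl is lowest in old rMETRNL in every subset shown, Gas6 peaks in the Cd163/Lyve1 subset (398 to 522 CPM), and Mfge8 peaks in the Spp1/Gpnmb subset (178 to 454 CPM).

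In FAP-like cells Axl was 151 CPM (147 to 155), 218 (213 to 224) and 208 (204 to 212). Both old libraries were above young PBS and lay near each other. The ratios were 1.45 (1.4 to 1.5) for old PBS over young PBS, 0.953 (0.923 to 0.984) for old rMETRNL over old PBS and 1.38 (1.33 to 1.42) for old rMETRNL over young PBS. The make-up of FAP-like cells differed between libraries. A sub-cluster led by Swt1, Trmt1l and Inka1, with Axl at 121, 175 and 126 CPM, was 28.3%, 9.46% and 16.4% of them, and a Pi16-led one, with 409.9, 646 and 581 CPM, was 7.65%, 11.3% and 12.6%. With the shares of the 10 FAP-like sub-clusters set equal, the ratios were 1.31, 0.923 and 1.21, the last inside the fold. Old PBS was above young PBS in 10 of 10 sub-clusters and old rMETRNL was above young PBS in 8 of 10. Tenocyte-like cells showed 142, 176 and 202 CPM, with old rMETRNL over young PBS at 1.42 (1.28 to 1.58), where 14.3% of all genes in that class were past the fold. MuSC/myoblast-like cells (muscle stem cells and their progeny) had 101, 92.5 and 110.2 CPM, with an interval of young PBS that overlapped each of the others. Endothelial-like cells had little Axl, 2.74, 5.59 and 4.25 CPM, 2.55 to 4.50 times the expected carry-over, and old PBS over young PBS was 2.04 (1.15 to 3.68) from 53 UMIs. In dendritic-like cells the level was 47.2, 36.8 and 30.7 CPM, and the ratio of old PBS to young PBS, 0.778 (0.628 to 0.961), was between 0.692 and 0.993 under other settings and inside the fold in 7 of 12. In that class 21.8% of all genes were past the fold in old PBS over young PBS. Old rMETRNL over young PBS was 0.649, and 0.731 with sub-cluster shares set equal, with old rMETRNL higher in 3 of 7 sub-clusters.

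Tyro3 (ENSMUSG00000027298, chr2:119797733-119818104, plus strand), the third TAM receptor, was rare. Macrophage/monocyte-like cells held 8, 6 and 3 Tyro3 UMIs in all, which was 0.0820, 0.0610 and 0.0269 CPM. FAP-like cells held 245, 134 and 215 UMIs, or 5.47 (4.81 to 6.20), 4.50 (3.77 to 5.33) and 4.93 (4.29 to 5.63) CPM. The 3 FAP intervals overlapped and no ratio was past the fold. Tyro3 in tenocyte-like cells was 2.59, 2.21 and 3.64 CPM, from 11, 4 and 15 UMIs.

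Gas6 (ENSMUSG00000031451, chr8:13465374-13494490, minus strand), the ligand of all TAM receptors, was abundant in macrophage/monocyte-like, FAP-like and tenocyte-like cells. The FAP-like level was 367 CPM (361 to 373), 375 (368 to 382) and 278 (273 to 283). Old rMETRNL was below both PBS libraries, which overlapped. Ratios were 1.02 (0.998 to 1.05), 0.741 (0.722 to 0.760) and 0.757 (0.740 to 0.776) in the order of contrasts given above. With sub-cluster shares set equal they were 0.974, 0.839 and 0.817, all inside the fold, so these calls depended on how the sub-clusters were weighted. Old rMETRNL was below old PBS in 8 of 10 sub-clusters. A few cells did not carry the level, since the top 1% of FAP-like cells held 9.77%, 11.5% and 14.1% of its UMIs. In tenocyte-like cells, where young PBS was the highest and old rMETRNL again the lowest, Gas6 stood at 362, 317 and 258 CPM, with old rMETRNL over young PBS at 0.713 (0.658 to 0.771).

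Macrophage/monocyte-like cells had Gas6 at 174 CPM (171 to 176), 187 (184 to 189) and 206 (203 to 208), lowest in young PBS and highest in old rMETRNL. The ratios of 1.07, 1.10 and 1.18, in the same order of contrasts, were inside the fold. With sub-cluster shares set equal those ratios were 1.01, 1.02 and 1.03. The subsets differed far more than the libraries. Cd163/Lyve1 cells stood at 494, 398 and 522 CPM, and Ly6c2-high monocyte-like cells at 28.5, 18.6 and 27.2 CPM. The Cd163/Lyve1 subset was 12.8%, 20.8% and 19.3% of macrophages. Within it Gas6 was higher with rMETRNL than in old PBS, by 1.31 (1.27 to 1.36). A Lyve1-led sub-cluster, with Gas6 at 548, 578 and 587 CPM, was 19.9%, 5.6% and 26.3% of the subset, and with the shares of its 3 sub-clusters set equal that ratio was 1.21, inside the fold. The part of this subset led by Cd209f, Cd209g and Pla2g2d, a sub-cluster of 62, 81 and 68 cells, stood above the rest of it at 738, 657 and 823 CPM.

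Vascular cells also made Gas6. The endothelial-like level was 55.6, 81.4 and 69.1 CPM, with old PBS over young PBS at 1.46 (1.28 to 1.67). Pericyte/smooth muscle-like cells had 35.5 (27.4 to 45.2), 85.2 (69.2 to 104) and 70.5 (58.6 to 84.1) CPM, with old PBS over young PBS at 2.4 (1.74 to 3.34). Old libraries were above young PBS in both classes, whose share of genes past the fold in old PBS over young PBS was 31.4% and 32.1%. In pericyte/smooth muscle-like cells old rMETRNL over young PBS was 1.99, but 1.22, inside the fold, under a stricter cell filter. Carried-over macrophage RNA would give 7.57, 8.85 and 13.2 CPM in pericyte/smooth muscle-like cells. MuSC/myoblast-like cells had 5.17, 5.57 and 6.06 CPM.

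Pros1 (ENSMUSG00000022912, chr16:62854307-62929346, plus strand), which encodes protein S, was highest in FAP-like cells among the large classes. There it was 143 CPM (140.0 to 147), 171 (166 to 176) and 142 (138 to 145). Old PBS was the highest and the other libraries overlapped. The ratios, 1.19 (1.15 to 1.24) and 0.828 (0.798 to 0.860), were inside the fold. Endothelial-like cells had 72.8, 89.1 and 77.2 CPM and pericyte/smooth muscle-like cells 80.8, 80.0 and 81.9 CPM.

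Pros1 was also highest in old PBS in macrophage/monocyte-like cells. Levels were 29.5 CPM (28.4 to 30.6), 37.8 (36.6 to 39.0) and 27.0 (26.1 to 28.0), with old PBS above the others. Old PBS over young PBS was 1.28 (1.22 to 1.35) and old rMETRNL over old PBS was 0.716 (0.682 to 0.751). Pros1 was higher in old PBS than in young PBS in 11 of 13 sub-clusters, and higher with rMETRNL than in old PBS in 2 of 13. Against old PBS the rMETRNL ratio was past the fold in 5 of 6 subsets and lowest, at 0.536 (0.419 to 0.689), in the interferon subset. The Cd163/Lyve1 subset was the exception, at 67.1, 67.3 and 54.3 CPM with a ratio of 0.806 (0.736 to 0.883). The Cd209f-led sub-cluster ran the other way, at 229.5 (201 to 261), 148.9 (126 to 175) and 227.1 (198 to 259) CPM. MuSC/myoblast-like cells had a lower level, 10.5, 18.1 and 10.7 CPM, also highest in old PBS. Its ratios were 1.72 (1.3 to 2.28) and then 0.589 (0.446 to 0.781), where 16.2% and 14.4% of all genes in that class were past the fold.

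**Figure D4:**
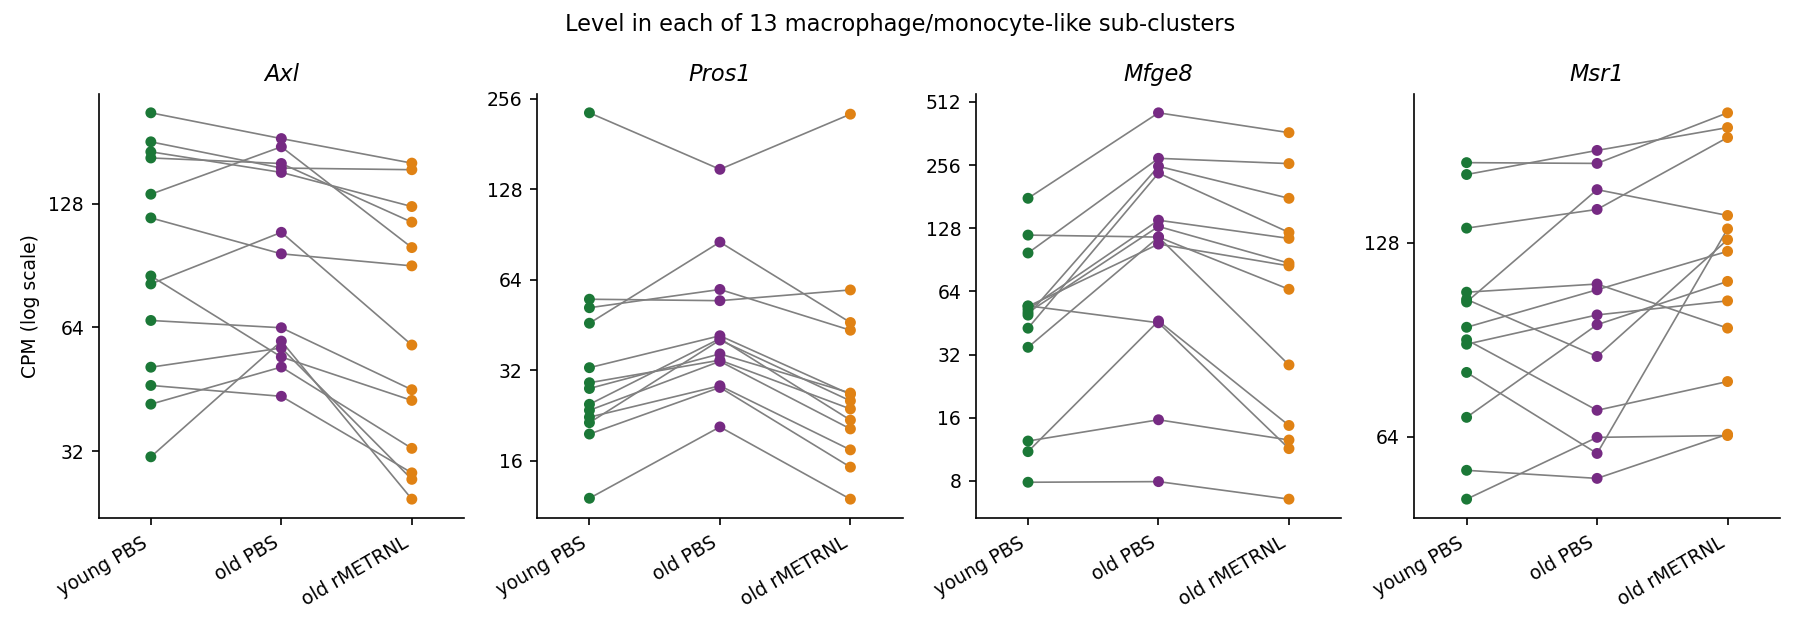
CPM (log axis) of Axl, Pros1, Mfge8 and Msr1 in each of 13 macrophage/monocyte-like sub-clusters, with a line joining the 3 libraries of a sub-cluster. Every Axl line ends lower at old rMETRNL than at old PBS, 11 of 13 Pros1 lines and 11 of 13 Mfge8 lines go up from young PBS to old PBS, and 11 of 13 Msr1 lines go up from old PBS to old rMETRNL.

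Mfge8 (ENSMUSG00000030605, chr7:79133768-79149060, minus strand) encodes the milk fat globule protein that bridges phosphatidylserine to integrins, and it had the largest ratio above 1 of any member between old PBS and young PBS macrophages. Macrophage/monocyte-like levels were 65.2 CPM (63.6 to 66.8), 198 (195 to 201) and 155 (152 to 157). Both old libraries were far above young PBS, and old rMETRNL lay between. Old PBS over young PBS was 3.03 (2.95 to 3.12), old rMETRNL over old PBS 0.782 (0.766 to 0.799) and old rMETRNL over young PBS 2.37 (2.31 to 2.44). With sub-cluster shares set equal the ratios were 2.70, 0.758 and 2.05. The ratio to old PBS was past the fold by little and lay inside it under 3 of 14 other settings, at 0.839 when macrophages were chosen by a UMI gate, 0.808 without the heat-shock-led sub-cluster and 0.805 with log values centred by library. Thinned shares of cells with an Mfge8 UMI were 5.16%, 11.6% and 8.55% (22.1%, 31.4% and 27.1% before thinning), against 2.48%, 2.27% and 0% of T/NK-like cells, the last of which allows a share of up to 2.65%.

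The subset with the most Mfge8 was Spp1/Gpnmb, which carries genes of lipid-handling macrophages, at 178, 454 and 365 CPM. It was 9.37%, 14.1% and 13.4% of macrophages. Cycling macrophages followed at 97.5, 276 and 260.1 CPM. The interferon subset had 42.8, 234 and 122 CPM and the Il1a/Slc7a11 subset 53.7, 115 and 94.9 CPM. In these 4 subsets old PBS over young PBS was past the fold, from 2.14 (1.99 to 2.30) in the Il1a/Slc7a11 subset to 5.48 (4.89 to 6.15) in the interferon subset, with intervals that treat UMIs of 1 cell as independent. In the interferon subset of old PBS a single cell of 178 held 279 of the 552 Mfge8 UMIs. Without the highest cell of each library its level was 39.9, 118 and 108 CPM and the ratio 2.95, and in the other 3 subsets the ratio was 2.23 to 3.38. The 5 highest interferon-subset cells held 82.2% of its Mfge8 UMIs in old PBS and 30.2% in young PBS, so 2.95 still rested on few cells. The 2 remaining subsets were low throughout. Cd163/Lyve1 cells had 16.1, 19.4 and 13.1 CPM and Ly6c2-high monocyte-like cells 7.89, 7.94 and 6.55 CPM, with intervals of old PBS over young PBS that held 1. In the Cd163/Lyve1 subset that ratio, 1.21 (0.993 to 1.47), was 1.40 without the highest cell of each library and 1.54 with its sub-cluster shares set equal, and old rMETRNL over old PBS was 0.675 (0.564 to 0.808), past the fold.

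Mfge8 UMIs lay in few macrophages. The top 1% of macrophage/monocyte-like cells (62, 60 and 68 cells) held 52.1%, 40.6% and 46.3% of its UMIs, whereas the top 1% for Mertk held 7.24%, 6.90% and 7.84%. The single highest cell held 315, 412 and 428 Mfge8 UMIs. A level of 500 CPM per cell, chosen after the values were seen, was used to describe these cells, and 42, 123 and 102 cells lay within the fold used here of it, so it bounds a range and not a cell type. Cells at or above it were 96 of 6213 (1.55%, 1.253% to 1.88%), 346 of 6016 (5.75%, 5.18% to 6.37%) and 287 of 6782 (4.23%, 3.77% to 4.74%). They held 59.1%, 78.1% and 76.2% of the Mfge8 UMIs, and in the remaining macrophages Mfge8 was 27.4, 47.7 and 39.7 CPM. After thinning to 2000 UMIs, cells with at least 2 Mfge8 UMIs were 1.3%, 4.87% and 3.51%, in the same order.

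Of the Mfge8-high cells, 39.6%, 43.9% and 45.3% were in the Spp1/Gpnmb subset. They had a median of 25290.0, 23780.0 and 25313 UMIs against 13979, 14313 and 13962 in other macrophages. Beside the other macrophages of the same library they had 4.2, 2.98 and 3.36 times the Spp1 level and 5.0, 2.85 and 4.04 times that of Ctsl, a lysosomal protease. Ly6c2, a monocyte gene, was at 0.0679, 0.149 and 0.0595 times. Axl was at 0.491, 0.621 and 0.515 times, while Cd300a was at 1.0, 1.02 and 1.13 times and Msr1 at 1.41, 1.21 and 1.21 times. Col1a1, which marks FAPs, was at 0.789, 0.60 and 0.70 times and Rgs5, which marks pericytes, at 0.422, 0.633 and 0.344 times. The Rgs5 interval reached 1 in young PBS and old PBS. In thinned cells, summed FAP markers were 411, 345 and 372 CPM in macrophages with an Mfge8 UMI and 378, 402 and 411 CPM in those without. Summed pericyte markers were 22.2, 20.1 and 17.7 CPM against 16.9, 20.4 and 17.96 CPM, and summed endothelial markers 23.8, 20.1 and 23.9 CPM against 30.8, 32.3 and 29.0 CPM. Summed FAP and pericyte markers were nominally higher beside Mfge8 in young PBS and not in the old libraries. Only 315 thinned macrophages of young PBS held an Mfge8 UMI, and no interval was made for these sums. Whether these sums differed beyond counting error was therefore not tested, nor was the part of stromal RNA in the Mfge8 level.

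**Figure D5:**
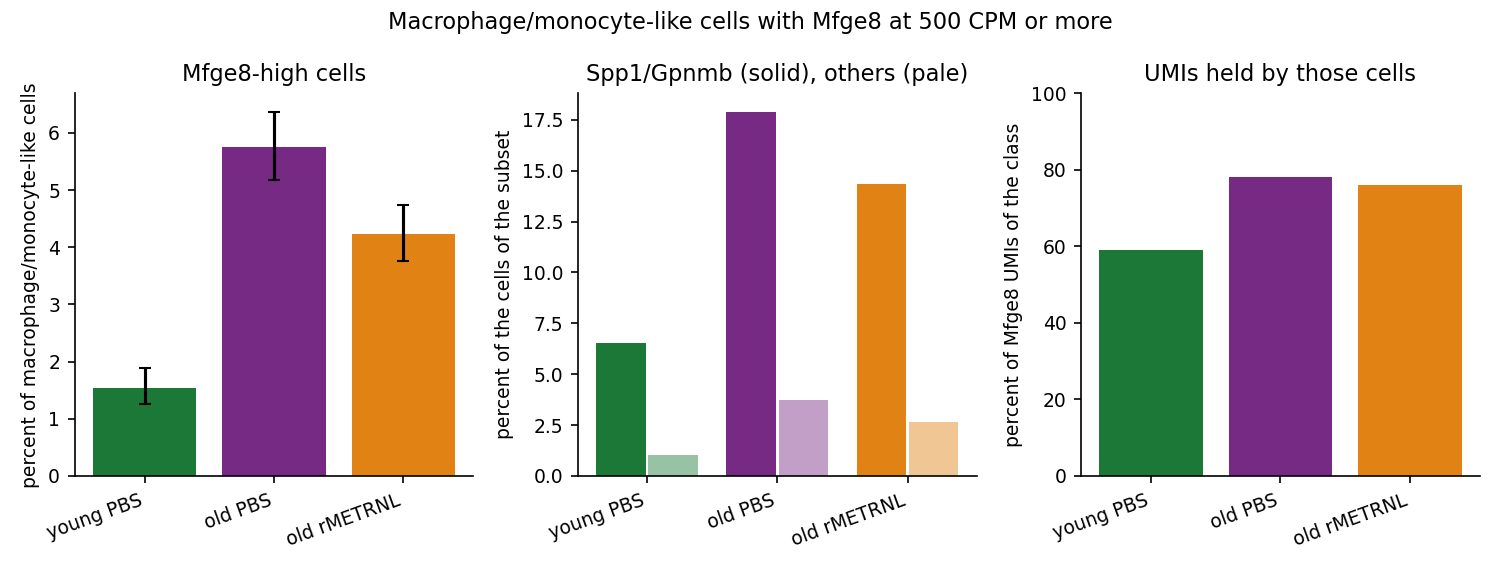
Macrophage/monocyte-like cells with Mfge8 at 500 CPM or more: their percent of all cells of the class with exact 95% intervals (left), their percent within the Spp1/Gpnmb subset and within the other macrophages (middle), and the percent of the class's Mfge8 UMIs they held (right). They were 6.53%, 17.9% and 14.3% of the Spp1/Gpnmb subset and 1.03%, 3.75% and 2.67% of the others.

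Outside macrophages, Mfge8 differed little between libraries. Pericyte/smooth muscle-like cells held the highest level, 853 CPM (811 to 896), 808 (757 to 861) and 814 (772 to 857), with overlapping intervals. Tenocyte-like cells had 328, 416 and 398 CPM, where old PBS over young PBS was 1.27 (1.16 to 1.39), where 17.6% of all genes in the class were past the fold, and lay inside the fold under 4 of 11 other settings. The FAP-like level was 143 CPM (140.0 to 147), 162 (158 to 167) and 137 (133 to 140), and endothelial-like cells had 156, 162 and 144 CPM, both inside the fold.

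Cd300a (ENSMUSG00000034652, chr11:114890041-114904654, plus strand), an inhibitory receptor of myeloid cells, was present in most macrophages. Macrophage/monocyte-like levels were 345 CPM (342 to 349), 329 (325 to 332) and 296 (293 to 299), in falling order from young PBS to old rMETRNL and with no overlap. The ratios of 0.952 (0.937 to 0.967), 0.901 (0.887 to 0.914) and 0.857 (0.844 to 0.870) were all inside the fold. Thinned shares of cells with a UMI were 48.2%, 45.3% and 42.9% (91.6%, 88.6% and 88.1% before thinning), against 0.185%, 0.688% and 0.726% of FAP-like cells, at a median of 26077, 21969 and 24668.5 UMIs. In FAP-like cells the level, 1.99, 2.32 and 2.38 CPM, was 0.784 to 0.904 times what carried-over macrophage RNA would give and is read as background. By subset it was highest in Il1a/Slc7a11 cells at 458, 451 and 439 CPM. The low end was shared by cycling cells at 183, 213 and 182 CPM and Cd163/Lyve1 cells at 235, 207 and 181 CPM.

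Dendritic-like cells were the other class with Cd300a, at 170.1 CPM (159 to 181), 98.7 (88.8 to 109) and 148 (138 to 158). Old PBS was below the others. The ratios were 0.580 (0.513 to 0.655) for old PBS over young PBS and 1.5 (1.33 to 1.70) for old rMETRNL over old PBS, where 21.8% and 16.4% of all genes in the class were past the fold, and the second was 1.24 with doublet calls kept. The class held several kinds of cell, and the sub-cluster with the most Cd300a, at 402, 299 and 385 CPM, was 23.4%, 6.14% and 15.8% of it (116, 18 and 83 cells). With the shares of its 7 sub-clusters set equal, the ratios were 0.775 and 1.21, the second inside the fold.

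Msr1 (ENSMUSG00000025044, chr8:39581685-39642673, minus strand), a scavenger receptor for modified lipoproteins and dying cells, was higher in old rMETRNL macrophages. Levels were 99.7 CPM (97.7 to 102), 114 (112 to 116) and 140.2 (138 to 142). The 3 libraries did not overlap. Old rMETRNL over young PBS was 1.41 (1.37 to 1.44), past the fold, and the steps between, 1.14 (1.11 to 1.17) and 1.23 (1.20 to 1.26), were inside it. With sub-cluster shares set equal the ratios were 1.251, 1.05 and 1.19, in that order. Msr1 was higher with rMETRNL than in old PBS in 11 of 13 sub-clusters. The largest step was in Ly6c2-high monocyte-like cells, at 80.6 (73.5 to 88.1), 60.3 (53.0 to 68.4) and 134 (126 to 143) CPM, where old rMETRNL over old PBS was 2.23 (1.93 to 2.58). In these cells a summed list of 7 erythroid markers stood at 1499, 43.2 and 740 CPM and 5 heat-shock and early-response genes at 3429, 2563 and 3932 CPM, both lowest in old PBS as Msr1 was, and their part in that ratio was not tested. Spp1/Gpnmb and cycling cells had the most Msr1 in each library, at 170.4, 169.9 and 204 CPM and at 163, 178 and 193 CPM. In FAP-like cells it was 0.715, 0.806 and 1.08 CPM, 0.788 to 1.02 times the expected carry-over, and is read as background.

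Marco (ENSMUSG00000026390, chr1:120474538-120505024, minus strand), a scavenger receptor of tissue macrophages at body barriers, was nearly absent. Macrophage/monocyte-like cells held 94 UMIs in 28 cells, 12 UMIs in 6 cells and 60 UMIs in 16 cells. That was 0.963 CPM (0.778 to 1.18), 0.122 (0.0630 to 0.213) and 0.539 (0.411 to 0.694). The ratios of 0.127 (0.0632 to 0.232) for old PBS over young PBS and 4.42 (2.35 to 9.02) for old rMETRNL over old PBS were past the fold, but their intervals treat UMIs of 1 cell as independent. The single highest cell held 19, 6 and 22 UMIs, and without it the ratios were 0.0794 and 5.60. In the Cd209f-led sub-cluster Marco was 11.9 (6.16 to 20.8), 8.88 (4.06 to 16.9) and 10.4 (4.97 to 19.1) CPM, from 12, 9 and 10 UMIs, and there the libraries overlapped. The differences between libraries therefore lay in a few cells of other sub-clusters, among them 6 cycling cells with 40 UMIs in young PBS and 2 cells of a Cxcl1-led sub-cluster with 28 UMIs in old rMETRNL.

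The other genes of the pathway, a list of 76 receptors, opsonins, engulfment, signalling and cargo-handling genes, gave the setting for these members. In macrophage/monocyte-like cells of old PBS against young PBS, 17 of 72 measured genes were higher past the fold and 6 lower, where 12.4% of all genes were higher and 12.8% lower. At equal sub-cluster shares, 6 of those 17 and 4 of those 6 stayed past the fold. Scavenger and opsonin receptors had 4 higher and 1 lower of 10, of which 2 and 1 stayed past the fold at equal shares, among them Olr1, a receptor for oxidised lipoproteins, at 9.15, 22.2 and 11.5 CPM. Abca1, which exports cholesterol after a meal of dead cells, stood at 384, 599 and 387 CPM. Both were highest in old PBS. In old rMETRNL Abca1 was near young PBS, whereas Olr1 was above it by 1.253 (1.15 to 1.37), past the fold by little and inside it, at 1.18, with sub-cluster shares set equal. With rMETRNL against old PBS, 3 of 71 were higher and 12 lower, where 12.8% and 7.91% of all genes were. At equal shares, 2 of those 3 and 7 of those 12 stayed past the fold. Old rMETRNL over young PBS gave 6 higher and 3 lower of 72, where 7.76% and 4.26% of all genes were. Of these, 3 of the 6 and 2 of the 3 stayed past the fold at equal shares. Timd4, a phosphatidylserine receptor of resident macrophages, was 0.492, 0.244 and 0.790 CPM and lowest in old PBS, as Marco was.

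In FAP-like cells 23 of 66 pathway genes were higher in old PBS than in young PBS and 7 lower, where 13.2% and 15.8% of all genes were. At equal sub-cluster shares, 9 of those 23 and 6 of those 7 stayed past the fold. Of 9 opsonins measured, 5 were higher and 1 lower, and 1 of those 5 (C3) stayed higher at equal shares. They included C3, the central complement protein, at 293, 601 and 423 CPM, and Thbs1, which bridges dying cells to CD36, at 504, 737 and 506 CPM. Scara5, a scavenger receptor that binds ferritin, was 57.7, 120.4 and 90.7 CPM. Megf10, an engulfment receptor, was the reverse, at 6.79, 3.33 and 3.46 CPM. At equal shares, old PBS over young PBS was 1.51 for C3, 1.13 and so inside the fold for Thbs1, 1.44 for Scara5, which is among the leading genes of the Pi16-led cluster, and 0.551 for Megf10. With rMETRNL against old PBS, 3 of 70 were higher and 9 lower, where 9.99% and 9.15% of all genes were. All 3 higher but only 3 of those 9 lower stayed past the fold at equal shares. Old rMETRNL over young PBS gave 11 higher and 4 lower of 69, where 6.84% and 7.67% of all genes were. At equal shares, 7 of those 11 and 2 of those 4 stayed past the fold. Some listed genes counted in FAP-like cells stood far higher in macrophages (C1qa, C1qc, Tyrobp, Trem2, Havcr2, Stab1, Cd36 and Cd93). Macrophage carry-over in FAP-like cells was 0.704%, 0.90% and 0.890% of the macrophage level, lowest in young PBS. Its part in these counts was not tested.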

How the data were processed

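Dissociated cells of injured tibialis anterior were sequenced as 3 droplet libraries (10x Genomics). The deposited files hold UMI counts per gene and barcode that the authors made with Cell Ranger against mm10. The file headers name version 5.0.0, the submitters' processing notes name 3.1.0 as well, and how intronic reads were counted is not given in the sources used here. The members and gene lists were chosen with earlier results of these data known.

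Barcodes were kept at 500 genes or more and less than 10% mitochondrial UMIs. Scrublet's automatic threshold called 0 doublets in each library, so the highest-scoring 0.8% per 1000 barcodes were removed instead, which was 9.69% to 11.1%. Cells were clustered with scanpy 1.11.5 (Python 3.11.15) on 2000 variable genes, 30 components, 20 neighbours and Leiden resolution 0.8, leaving out the 85 member and pathway genes. Clusters were named from marker lists, and the conditions for a name were set after cluster tables were seen. A cluster mostly from 1 library may be that library and not a cell type.

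UMIs were summed per class and library and divided by the class total (CPM), with exact Poisson intervals. Ratios carry exact conditional intervals. Shares of cells were taken after thinning to 2000 UMIs, with exact binomial intervals, and a count of 0 was given an upper limit of 3 counts. Carry-over was the level of 6 macrophage genes in a class over that in macrophages. All 9 members were named, and genes of the pathway list were named by the size of their ratio among those past the fold. Other pathway genes printed were chosen after their values were seen. The ratio call was checked on simulated Poisson counts, which hold no clumping of UMIs within cells. Thinning was checked on kept cells of the data. There were 17 alternatives, and 4 more (leaving out the heat-shock-led sub-cluster, leaving out the highest cell of each library, and setting sub-cluster shares equal for members in FAP-like and dendritic-like cells, over sub-clusters with at least 10 cells in every library, and for pathway genes and within the Cd163/Lyve1 subset) were chosen after seeing the data. Genome positions are from GENCODE M21 (GRCm38), and promoters are from RefSeq.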

Additional observations from a re-analysis of the deposited data

Results flagged for a closer look

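Axl stood out because its difference between old rMETRNL and young PBS was past the fold in opposite directions in the 2 largest cell classes. In macrophage/monocyte-like cells the ratio was 0.623 (0.605 to 0.641), from 73.0 CPM in old rMETRNL and 117 CPM in young PBS. In FAP-like cells the ratio was 1.38 (1.33 to 1.42), from 208 CPM and 151 CPM, and was 1.21, inside the fold, with FAP sub-cluster shares set equal. With 1 library a group, the difference between the 2 classes was not tested.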

How the results depend on the processing

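No paired analysis was possible because each group was 1 library and no result came from a test. The count of members past the fold in macrophage/monocyte-like cells, old rMETRNL over old PBS, was 4 and became 1 at a fold of 1.5. For FAP-like cells, old PBS over young PBS, it was 1 and became 3 with the mean of per-cell CPM, 2 with a total without mitochondrial and ribosomal protein genes and 0 at a fold of 1.5. Old rMETRNL over old PBS gave 1 in FAP-like cells, which became 2 under the UMI gate, 2 with the mean of per-cell CPM and 0 at a fold of 1.5. Old rMETRNL over young PBS gave 2 there, which became 5 with the mean of per-cell CPM, 0 at a fold of 1.5 and 4 without the highest cell of each library. The other 80 such counts were within 1.5 times. The cause of these shifts was not tested, apart from the higher fold.

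A ratio was classed as reversed in 2 cases: Cd36 ratio in FAP-like cells, old rMETRNL over young PBS, was 0.902 with doublet calls kept, and Pros1 ratio in endothelial-like cells, old rMETRNL over old PBS, was 1.06 with the mean of per-cell CPM. Other ratios crossed 1 without being classed so. At equal sub-cluster shares in FAP-like cells, old PBS over young PBS, Gas6 went from 1.02 to 0.974 and Tyro3 from 0.822 to 1.05. Of the members' ratios, 162 moved beyond their counting interval in the same direction and 1443 did not. Levels by macrophage subset were less settled, with 528 beyond their interval and 606 within it, and of the shares of cells with a UMI, taken without thinning or at 2 UMIs or more, 50 moved beyond theirs and 4 did not. The scaling alternatives moved the median of all genes by under 0.1 on the log2 scale in each class compared. In myocyte/fibre-like cells, left out above, they moved it by up to 0.37. Depth limits Tyro3 in macrophages (3 to 8 UMIs) and Marco (12 to 94 UMIs), and with 1 pooled library a group no setting addresses the spread between mice.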

Other observations

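The genes whose levels were most like those of a member across cell classes, by Pearson's r of log levels over 27 class and library points from 9 classes, are given as a description. The points share libraries and depth, and levels follow the classes above all. Mertk was closest to Rab20 (r = 0.93), and Abca1, a cholesterol exporter, was among its closest genes (0.92). Gas6 was closest to Igf1 (0.97), a growth factor gene, and Pros1 to Klf4 (0.96), a transcription factor gene. Cd300a was closest to Cd300c2 (0.98), a gene of its own family, and Msr1 to Ms4a7 (0.97), a macrophage gene, followed by the complement genes C1qa (0.97) and C1qb (0.96). Over 39 macrophage sub-cluster points, Mertk was closest to C1qc (0.92) and Marco to Cd209g (0.83) and Timd4 (0.80), genes of tissue macrophages.

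Among thinned macrophages, those with a Mertk UMI held an Axl UMI about as often as those without one. After thinning to 2000 UMIs, Axl was seen in 19.9% (17.1% to 22.9%), 17.9% (15.2% to 21.0%) and 14.6% (12.1% to 17.4%) of Mertk-positive cells of young PBS, old PBS and old rMETRNL. In Mertk-negative cells it was seen in 21.8% (20.7% to 22.9%), 18.6% (17.5% to 19.7%) and 14.9% (14.0% to 15.9%). The intervals overlapped in each library. Before thinning, 50.7%, 52.5% and 51.0% of macrophages held a Mertk UMI, so many cells counted as negative carried it. Subsets that differ in both genes were also pooled. The comparison therefore cannot say whether the receptors occur in the same cells.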
